A study of Triticum aestivum with 12 samples.

Results

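On chromosomes 7A and 7D of wheat, 63 neighbouring high-confidence gene models were followed through cold acclimation and freezing of the crown, 42 on 7A (TraesCS7A01G198300 to TraesCS7A01G203900) and 21 on 7D (TraesCS7D01G204200 to TraesCS7D01G207000). They are the high-confidence models within these number ranges among 82323 in the table, which holds 128497 models in all. The ranges were chosen by the measured LTAF against LTA differences of neighbouring models in these same libraries, so that difference is given below as a description. The data are RNA sequencing counts from crowns of the cultivar Jing411, a single genotype in all groups. NTG plants were kept for 28 days at 20 °C, without acclimation, and LTA plants for 28 days at 4 °C, as cold acclimation. The frozen groups NTGF and LTAF had the same growth as NTG and LTA, respectively, followed by 24 hours at -5 °C. Each group had 3 biological replicates, which the labels do not tie to numbers of plants. The labels' tissue field reads SEEDING, and the crown comes from the extraction protocol, and the tissue could not be checked against markers, because no identifier carries a name.

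The crown is the short stem base from which a winter cereal regrows, and its survival decides whether a frozen plant lives. During cold acclimation, weeks at low but not freezing temperature change the expression of many genes and raise freezing tolerance. Bread wheat carries related A, B and D subgenomes, and chromosomes 7A and 7D are counterparts that hold largely the same genes in the same order. Reads from near-identical copies can be divided or doubled between such chromosomes, so members on 7A and 7D need not be independent of each other. In whole crowns, fewer cells of a type and less RNA per cell cannot be told apart. None of the members is annotated by the files or by the reference table, so each is given by identifier, with no function and no sequence.

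Each library held between 17871036 and 21491305 counted reads. Levels are given as counts or as CPM (read counts relative to the library's total after TMM scaling), and CPM is compared within a model only, since lengths are not given. A model is called where edgeR's quasi-likelihood test gave a Benjamini-Hochberg adjusted p under 0.05 over all 69693 models that passed the filter on low counts. Of the 63 members, 41 passed (26 on 7A and 15 on 7D), and the other 22 held at most 15 counts in any library. LTAF replicate 2 stood apart: it was the lowest LTAF library in 41.0% and the highest in 40.7% of all tested models, and its values are given separately.

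Most tested members had a higher fitted level in LTAF than in LTA, and the sizes differed widely among them. Over the 26 tested 7A members the mean level was 0.93 ± 0.49 log2 CPM in NTG, 0.19 ± 0.25 in LTA, 0.77 ± 0.33 in NTGF and 1.62 ± 0.55 in LTAF (SD, n = 3). Over the 15 tested 7D members it was 0.55 ± 0.56 in NTG, -0.27 ± 0.09 in LTA, 0.49 ± 0.37 in NTGF and 1.52 ± 0.60 in LTAF. Within LTAF, replicates 1 and 3 averaged 1.93 on 7A and 1.81 on 7D, and replicate 2 lay at 1.01 and 0.93, between them and LTA. In LTAF against LTA, the contrast behind the choice, 13 of the 41 were called higher and 0 lower, where 3.99% of all tested models were called higher and 1.92% lower. All 3 LTAF libraries lay above all 3 LTA libraries for 19 of the 41, against 13.8% of all tested models. The fitted change was positive for 34 of the 41 and negative for 7. The median log2 fold change was 1.02 on 7A and 1.72 on 7D, and -0.03 over all tested models. At an unadjusted p under 0.05 in edgeR, 22 of the 41 passed in either direction, in the contrast that chose them. The share of all tested models at that threshold was not computed, so this count has no background. The other 28 tested members were not called, which does not show that they did not differ, and 22 members were not tested. Leaving out LTAF replicate 2 gave 17 higher and 1 lower of the 43 members then tested, the latter being TraesCS7A01G202700, where 6.06% and 5.33% of all tested models were called. The count of higher members was 5 of the 43 then tested whichever LTA library was left out. It was also 5 of 43 when LTAF replicate 1 or LTAF replicate 3 was dropped. In these fits 1.37% to 1.92% of all models then tested were called higher. With no filter on low counts 6 of the 63 members were called higher, where 1.79% of all models were.

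**Figure D1:**
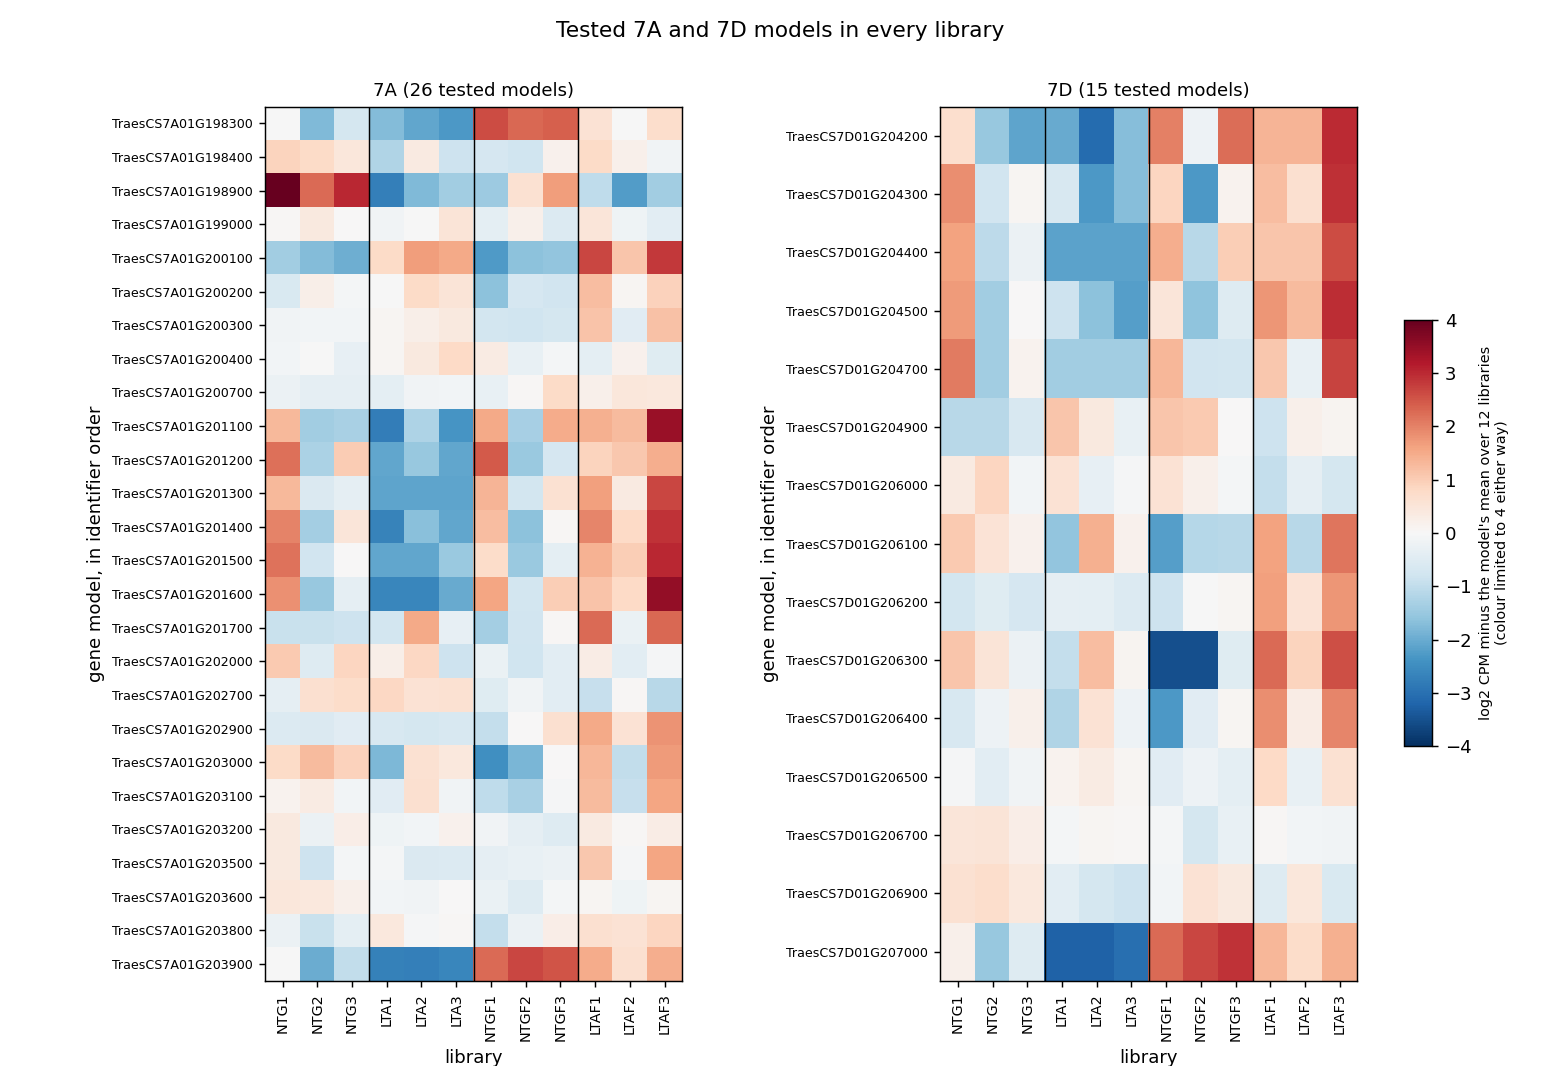
Levels of the 41 tested members in the 12 libraries, as log2 CPM minus each model's own mean, with 7A on the left and 7D on the right in identifier order; red is above and blue below the mean. The 6 neighbouring models from TraesCS7A01G201100 to TraesCS7A01G201600 and the 5 tested models from TraesCS7D01G204200 to TraesCS7D01G204700 are blue in all LTA libraries and red in LTAF replicates 1 and 3, while TraesCS7A01G203900 and TraesCS7D01G207000 are darkest red in NTGF.

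Large differences lay in a short stretch on each chromosome, 6 consecutive listed models on 7A (TraesCS7A01G201100 to TraesCS7A01G201600) and 6 on 7D (TraesCS7D01G204200 to TraesCS7D01G204700), set apart here after their values were seen. Their transcripts were almost absent from acclimated crowns and present in frozen acclimated crowns. TraesCS7A01G201600 had 0, 0 and 1 counts in LTA replicates 1, 2 and 3 and 22, 17 and 111 in LTAF. TraesCS7A01G201300 had no count in LTA and 22, 8 and 43 in LTAF. All LTAF libraries of both models lay above all LTA libraries, with LTAF replicate 3 the highest. TraesCS7A01G201100 had 1, 7 and 2 counts in LTA and 48, 43 and 184 in LTAF. TraesCS7A01G201400 had 0, 2 and 1 and 42, 18 and 76, and TraesCS7A01G201500 had 0, 0 and 1 and 18, 13 and 54. TraesCS7A01G201200 was more even among the LTAF libraries, with 0, 1 and 0 counts in LTA and 12, 14 and 17 in LTAF.

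On 7D the same picture held at similar counts. TraesCS7D01G204200 had 2, 0 and 3 counts in LTA and 36, 36 and 105 in LTAF. TraesCS7D01G204500 had 3, 1 and 0 and 26, 18 and 57, and TraesCS7D01G204300 had 4, 0 and 1 and 19, 12 and 59. As on 7A, the groups did not overlap and LTAF replicate 3 was the highest. TraesCS7D01G204400 and TraesCS7D01G204700 had no count in LTA, and 15, 15 and 42 and 8, 2 and 26 in LTAF. TraesCS7D01G204600, which did not pass the filter on low counts, had no count in LTA and 3, 1 and 9 in LTAF. Against a floor of 3 counts over the group, LTAF was at least 27.2-fold higher for TraesCS7A01G201300, 26.9-fold for TraesCS7D01G204400 and 13.4-fold for TraesCS7D01G204700. Without LTAF replicate 3 these bounds were 16.3, 16.3 and 5.44, and with any other library left out they lay between 8.74 and 36.9. The mean log2 fold change of LTAF against LTA was 6.11 over the 6 tested models in the 7A stretch and 0.80 over the 20 tested 7A members outside it. On 7D it was 5.78 over 5 and 0.98 over 10. Fitted values of models at or near 0 counts in LTA depend on the prior count. With the 3 models at 0 counts placed at their bounds, the mean over all tested members went from 2.02 to 1.91 on 7A and from 2.58 to 2.17 on 7D.

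Among unacclimated crowns, frozen or not, the stretches varied widely from library to library. TraesCS7A01G201600 had 54, 3 and 8 counts in NTG replicates 1, 2 and 3 and 34, 5 and 20 in NTGF. TraesCS7D01G204500 had 37, 2 and 8 in NTG and 11, 1 and 4 in NTGF. TraesCS7A01G201400 had 64, 4 and 17 and 28, 2 and 10. In each of them NTG replicate 1 and NTGF replicate 1 were high, and NTG replicate 2 and NTGF replicate 2 were low. This order was shared along both stretches: NTG replicate 1 was the highest of its group in 12 of 12 models, against 35.2% of all tested models, and NTG replicate 2 the lowest in 11 of 12, against 32.8%. NTGF replicate 2 was the lowest in 12 of 12, against 28.2%, and NTGF replicate 1 the highest in 11 of 12, against 34.6%. In LTAF, replicate 3 was the highest in 12 of 12, against 32.1%, and replicate 2 had the lowest CPM in 11 of 12, against 41.0%. For TraesCS7D01G204200 and TraesCS7D01G204400, 2 of these 11, LTAF replicates 1 and 2 had equal counts. The models can share reads, so these counts describe the libraries and are not independent of one another.

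Averaged over the 12 stretch models, the level was -0.93 ± 1.43 log2 CPM in NTG, -2.92 ± 0.02 in LTA, -0.89 ± 1.24 in NTGF and 0.54 ± 1.03 in LTAF (SD, n = 3). The LTA value lies near the level that the prior count gives to models without counts. The libraries ran from -2.22 to 0.61 in NTG, from -2.20 to 0.26 in NTGF and from -0.30 to 1.68 in LTAF, so LTAF replicates 1 and 2, at 0.23 and -0.30, lay within the spans of NTG and NTGF, and LTAF replicate 3 lay above all 11 other libraries. In LTAF against NTG, 1 of the 11 tested models was called higher (TraesCS7D01G204200), against 23.5% of all tested models, and 1 of 12 lay higher with no overlap between the groups, against 28.0%. In NTGF against NTG, which shares no library with the contrast behind the choice, edgeR called 0 of 11 in either direction. Of all tested models, 14.2% were called higher and 11.7% lower. The filter that admitted these 11 also used the LTA and LTAF libraries. The fitted log2 fold changes ran from -1.36 to 2.32. TraesCS7D01G204200 had the highest of these, 2.32 ± 0.89 (SE), with 32, 5 and 2 counts in NTG and 65, 12 and 69 in NTGF (edgeR adjusted p = 0.0782). It was called with DESeq2 (adjusted p = 0.0365) and by edgeR without NTG replicate 1 (adjusted p = 0.0231) or without NTGF replicate 2 (adjusted p = 0.0396). In LTA against NTG, 6 of the 11 were called lower, against 18.1% of all tested models, and 6 of the 12 had every LTA library below every NTG library, against 31.2%. The size of that difference depends on NTG replicate 1: without it the lower bound on the fold for TraesCS7A01G201300 went from 9.11 to 4.03, that for TraesCS7D01G204400 from 10.9 to 3.63 and that for TraesCS7D01G204700 from 7.80 to 1.61. These 2 comparisons share the LTAF or the LTA libraries with the contrast behind the choice and are given as descriptions.

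**Figure D2:**
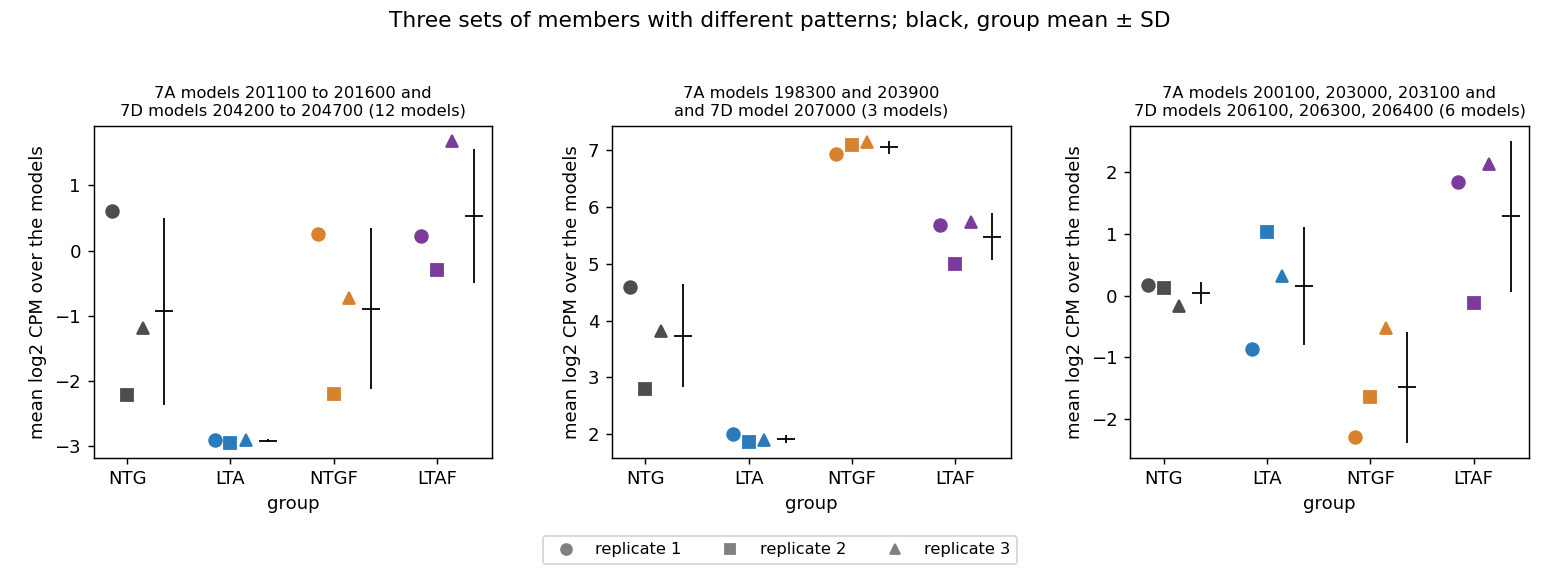
Mean log2 CPM per library over 3 sets of members, with a point per library by replicate number and the group mean ± SD in black. In the 12 stretch models LTA lies at -2.92 with almost no spread while the other groups have an SD of 1.03 to 1.43; in the 3 models at the ends of the ranges the NTGF libraries average 7.05; in the 6 models on the right LTAF replicate 2 lies at -0.12 and replicates 1 and 3 at 1.84 and 2.13.

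TraesCS7A01G198300 and TraesCS7A01G203900, which open and close the 7A range, and TraesCS7D01G207000, which closes the 7D range, were higher after freezing in unacclimated and in acclimated plants. TraesCS7A01G203900 lay at 23.7, 5.94 and 12.2 CPM in NTG, 3.63, 3.50 and 3.83 in LTA, 116, 153 and 137 in NTGF and 67.6, 37.5 and 66.5 in LTAF. Its 4 groups did not overlap, in the order LTA, NTG, LTAF and NTGF. In NTGF against NTG it rose by 3.28 ± 0.42 on the log2 scale (SE; higher in 3 of 3 libraries; edgeR adjusted p = 0.000572). TraesCS7D01G207000 lay at 21.9, 6.63 and 13.4 CPM in NTG, 1.92, 1.95 and 2.26 in LTA, 91.8, 122 and 143 in NTGF and 48.5, 31.5 and 51.5 in LTAF, with the same order and no overlap. It rose in NTGF by 3.09 ± 0.37 (edgeR adjusted p = 0.000391). TraesCS7A01G198300 lay at 26.9, 8.01 and 16.8 CPM in NTG, 8.24, 6.44 and 5.46 in LTA, 169, 135 and 145 in NTGF and 41.2, 27.4 and 45.0 in LTAF. NTG replicate 2 and LTA replicate 1 overlapped there, while NTGF stood above all others. It rose in NTGF by 3.12 ± 0.38 (edgeR adjusted p = 0.000391). The adjusted p in NTGF against NTG was at most 0.0100 for these 3 models over all alternatives tried, the highest being that of TraesCS7A01G203900 in a fit of NTG and NTGF alone. In all 3, NTG replicate 1 was the highest and NTG replicate 2 the lowest of the NTG libraries, as in the stretches. LTAF replicate 2 was the lowest LTAF library in all 3, and still lay above every LTA and every NTG library. The log2 fold changes of LTAF against LTA were 2.49, 3.97 and 4.42, and LTAF lay below NTGF by -1.98, -1.24 and -1.44. The difference between the freezing responses of acclimated and unacclimated plants was -0.62 ± 0.50, 0.69 ± 0.56 and 1.33 ± 0.51 on the log2 scale (SE), and none of these was called.

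TraesCS7A01G202900 and TraesCS7D01G206200 were the members called higher in LTAF than in each of the other 3 groups and called in neither LTA against NTG nor NTGF against NTG. TraesCS7D01G206200 lay at 4.53, 5.40 and 4.66 CPM in NTG, 5.88, 5.69 and 5.20 in LTA, 4.24, 7.56 and 7.94 in NTGF and 23.8, 11.0 and 25.7 in LTAF. Its LTAF libraries lay above all 9 others, with replicate 2 below replicates 1 and 3. TraesCS7A01G202900 lay at 6.52, 6.40 and 6.97 CPM in NTG, 6.16, 5.84 and 6.09 in LTA, 4.96, 9.63 and 15.1 in NTGF and 27.6, 14.3 and 33.6 in LTAF. Here NTGF replicate 3 exceeded LTAF replicate 2, and LTAF replicates 1 and 3 exceeded all others. In NTGF against NTG the log2 fold changes were 0.58 ± 0.36 and 0.43 ± 0.30 (SE), for TraesCS7A01G202900 and TraesCS7D01G206200, and edgeR did not call either (adjusted p = 0.268 and 0.323). The log2 fold changes of LTAF against LTA were 2.06 and 1.85, and those of LTAF against NTG 1.92 and 2.05. The interaction terms, 1.48 ± 0.51 and 1.42 ± 0.43, were not called, so the freezing responses were not shown to differ. TraesCS7A01G203800 also had all LTAF libraries above the 9 others, at 2.51, 2.39 and 2.98 CPM, but LTA reached 2.14.

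**Figure D3:**
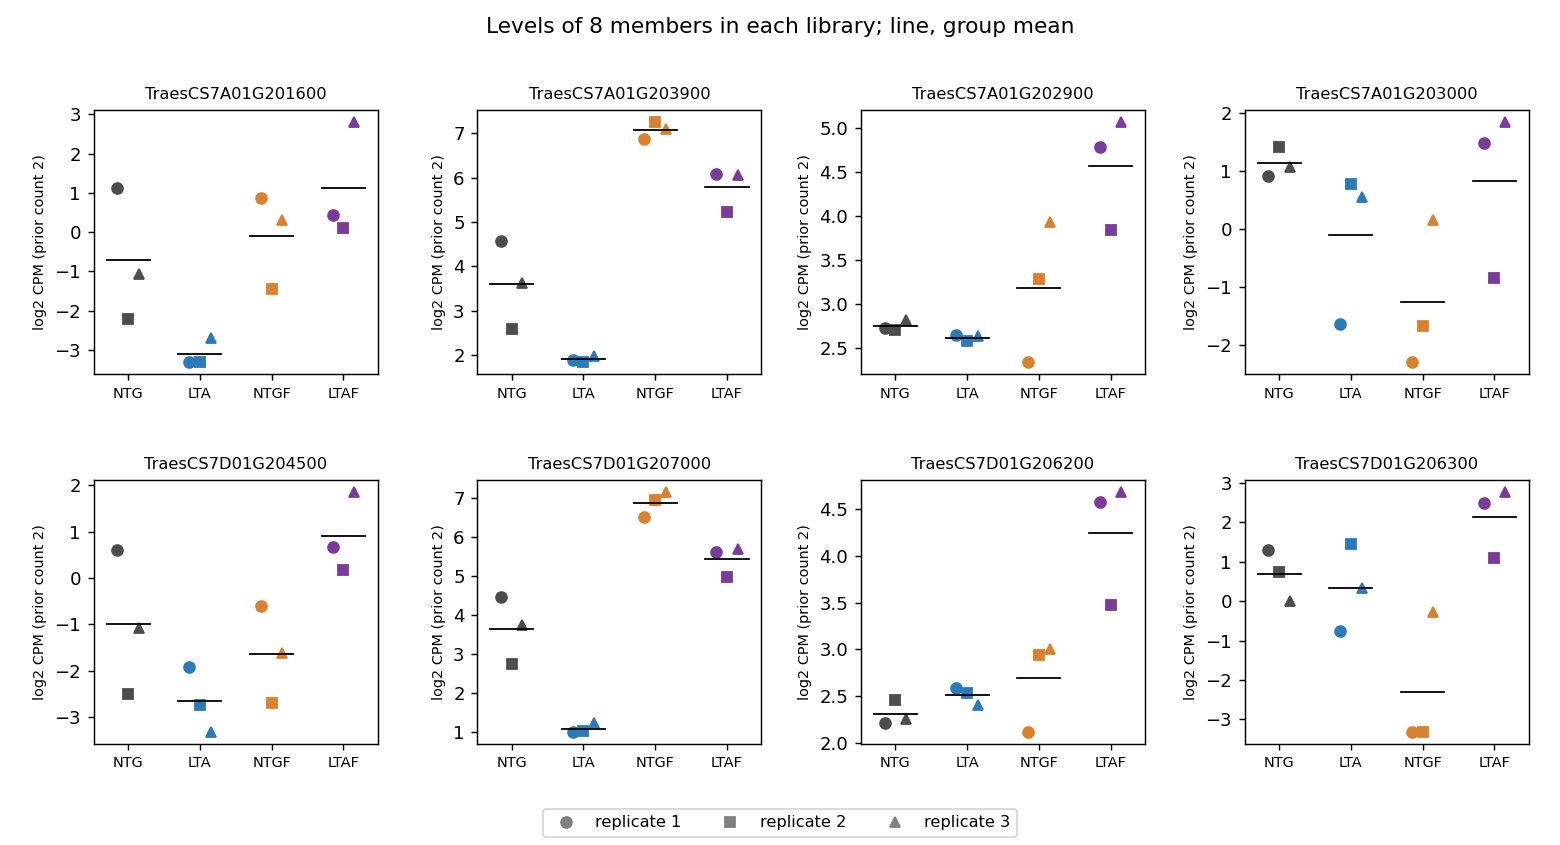
Log2 CPM of 8 members in every library, 7A above and 7D below, with a line at each group mean. From left to right the columns show a stretch model, a model at the end of its range, a model high in LTAF, and a model low in NTGF with LTAF replicate 2 below the other LTAF libraries.

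In 9 tested members LTAF replicates 1 and 3 averaged at least 2-fold above the LTA mean and LTAF replicate 2 did not reach 2-fold. They include TraesCS7D01G206200, described above, TraesCS7A01G201700 and TraesCS7A01G203500. The other 6 are described together: TraesCS7A01G200100, TraesCS7A01G203000, TraesCS7A01G203100, TraesCS7D01G206100, TraesCS7D01G206300 and TraesCS7D01G206400. They were picked out after their values were seen. TraesCS7D01G206300 lay at 2.38, 1.57 and 0.895 CPM in NTG, 0.495, 2.65 and 1.15 in LTA, 0, 0 and 0.732 in NTGF and 5.53, 2.05 and 6.78 in LTAF. Its LTAF replicate 2 lay below LTA replicate 2, and NTGF replicates 1 and 2 had no count. TraesCS7A01G203000 lay at 1.77, 2.57 and 1.98 CPM in NTG, 0.220, 1.60 and 1.36 in LTA, 0.102, 0.213 and 1.01 in NTGF and 2.68, 0.456 and 3.48 in LTAF. TraesCS7D01G206100 lay at 0.844, 0.575 and 0.424, 0.0550, 1.15 and 0.420, 0, 0.106 and 0.113 and 1.31, 0.114 and 1.93 CPM in the same groups. TraesCS7A01G203500, outside these 6, had 6, 4 and 4 counts in LTA and 15, 6 and 20 in LTAF, with LTA replicate 1 the highest LTA library. In each of the 6, LTA replicate 1 was the lowest and LTA replicate 2 the highest LTA library, and NTGF replicate 3 the highest NTGF library. Over the 6, the level was 0.04 ± 0.18 log2 CPM in NTG, 0.16 ± 0.96 in LTA, -1.49 ± 0.89 in NTGF and 1.28 ± 1.22 in LTAF (SD, n = 3). None of the 6 was called in LTAF against LTA, where 3.99% of all tested models were called higher and 1.92% lower. None was called in NTGF against NTG, where the shares were 14.2% and 11.7%. In LTAF against NTGF, 5 of the 6 were called higher, against 20.2% of all tested models. There 4 of the 6 lay higher with no overlap, against 22.4%. That comparison shares the LTAF libraries with the choice and is a description. TraesCS7A01G200100 was the one called higher in LTA than in NTG, at 0.461, 0.345 and 0.282 CPM in NTG, 2.42, 4.59 and 4.09 in LTA, 0.204, 0.373 and 0.394 in NTGF and 9.41, 3.08 and 10.4 in LTAF. In that model both acclimated groups lay above both unacclimated groups.

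Across all tested members LTAF replicate 2 had the lowest CPM of the LTAF libraries in 31 of 41, against 41.0% of all tested models. On the log2 CPM scale, LTAF replicates 1 and 3 lay above the LTA mean by a mean of 1.86 over the 41 members, and LTAF replicate 2 by 0.96. Of the 24 members in which replicates 1 and 3 averaged at least 2-fold above LTA, replicate 2 was at least 2-fold above in 15. Of the 6920 such models among all tested models it was in 3079. LTAF replicate 2 was among the libraries by which the ranges were chosen, and 11 of the 15 members are stretch models, which can share reads. The members and all tested models are therefore not compared on equal terms here, and these counts are descriptions. Without LTAF replicate 2, 43 members were tested, and LTAF was called higher than LTA in 17 and higher than NTGF in 17. Of all models then tested, 6.06% and 20.9% were called higher. Both comparisons share LTAF libraries with the choice of members and are descriptions.

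In unacclimated crowns, few members were called after freezing, in shares not far from those of all tested models. Whether the member shares lay below or above differed among the fits given here. In NTGF against NTG edgeR called 4 of the 41 higher and 3 lower, which is 9.76% and 7.32%. Of all tested models, 14.2% and 11.7% were called. The filter that admitted the 41 also used the LTA and LTAF libraries, by which the ranges were chosen. In a fit of NTG and NTGF alone, 30 members passed it. Of these, 3 were called higher and 2 lower, where 8.78% and 10% of the 65698 models then tested were called. The libraries did not overlap for 4 higher and 9 lower members, against 21.9% and 20.2% of all tested models. The median log2 fold change was -0.29 over the members and 0.04 over all tested models. At an unadjusted p under 0.05 in edgeR, 15 of the 41 passed in either direction, and the share of all tested models was not computed. With library totals as the scale, 4 were called higher and 9 lower, where 6.58% and 20.9% of all tested models were called, and the median of all tested models was -0.27. The count of lower members was 6 with DESeq2 and 5 without NTGF replicate 3, against 12.4% and 10% of all models then tested. It was 2 without NTG replicate 1 or NTGF replicate 2, against 7.23% and 9.71%. Beside the 3 models at the ends of the ranges, TraesCS7D01G204900 rose by 2.48 ± 0.64 on the log2 scale (SE; edgeR adjusted p = 0.0149), from 2, 2 and 3 counts to 14, 13 and 5. It had 13, 8 and 4 counts in LTA and 2, 6 and 5 in LTAF, so LTAF replicates 2 and 3 exceeded LTA replicate 3. Its call was lost without NTG replicate 1 (adjusted p = 0.0603) or without NTG replicate 2 (adjusted p = 0.0622). TraesCS7A01G203600 and TraesCS7D01G206700 fell by small amounts. TraesCS7A01G203600 went from 41.0, 40.5 and 34.7 CPM in NTG to 25.1, 21.3 and 28.8 in NTGF, a log2 fold change of -0.63 ± 0.15 (SE; lower in 3 of 3 libraries; edgeR adjusted p = 0.00997). TraesCS7D01G206700 went from 43.6, 44.5 and 37.5 to 29.1, 19.1 and 25.0, a log2 fold change of -0.78 ± 0.16 (edgeR adjusted p = 0.00507). In LTA and LTAF they lay at 28.8 ± 1.71 and 30.2 ± 3.12 CPM, and at 31.4 ± 1.97 and 29.6 ± 1.94 (SD, n = 3), which overlap within each model.

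TraesCS7A01G198900 had its highest level in unfrozen, unacclimated crowns. It lay at 409, 91.4 and 155 CPM in NTG, 2.80, 5.54 and 7.14 in LTA, 6.95, 28.9 and 61.6 in NTGF and 9.35, 3.99 and 7.21 in LTAF, so that every NTG library was above all others. It fell in NTGF by 2.75 ± 0.76 on the log2 scale (SE; edgeR adjusted p = 0.0224). That call was lost without NTG replicate 1, where the log2 fold change was -1.93 (adjusted p = 0.0975), without NTGF replicate 2 (adjusted p = 0.0684), without the filter on low counts (adjusted p = 0.0764) and in a fit of NTG and NTGF alone (adjusted p = 0.0675). In LTA it lay below NTG by a log2 fold change of -5.40 and in LTAF by -4.99. TraesCS7A01G202700 and TraesCS7D01G206000 had the lowest fitted LTAF against LTA changes of the members on their chromosomes, -1.32 and -0.84 on the log2 scale. TraesCS7A01G202700 lay at 2.91, 2.45 and 2.52 CPM in LTA and 0.798, 1.65 and 0.684 in LTAF. TraesCS7D01G206000 lay at 1.48, 0.749 and 0.945 and 0.456, 0.741 and 0.560. In both, every LTAF library was below every LTA library. TraesCS7D01G206500, one of the 4 members on 7D with the highest mean CPM, lay at 5.83, 6.64 and 5.67 CPM in LTA and 9.35, 4.28 and 8.14 in LTAF, which overlap.

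**Figure D4:**
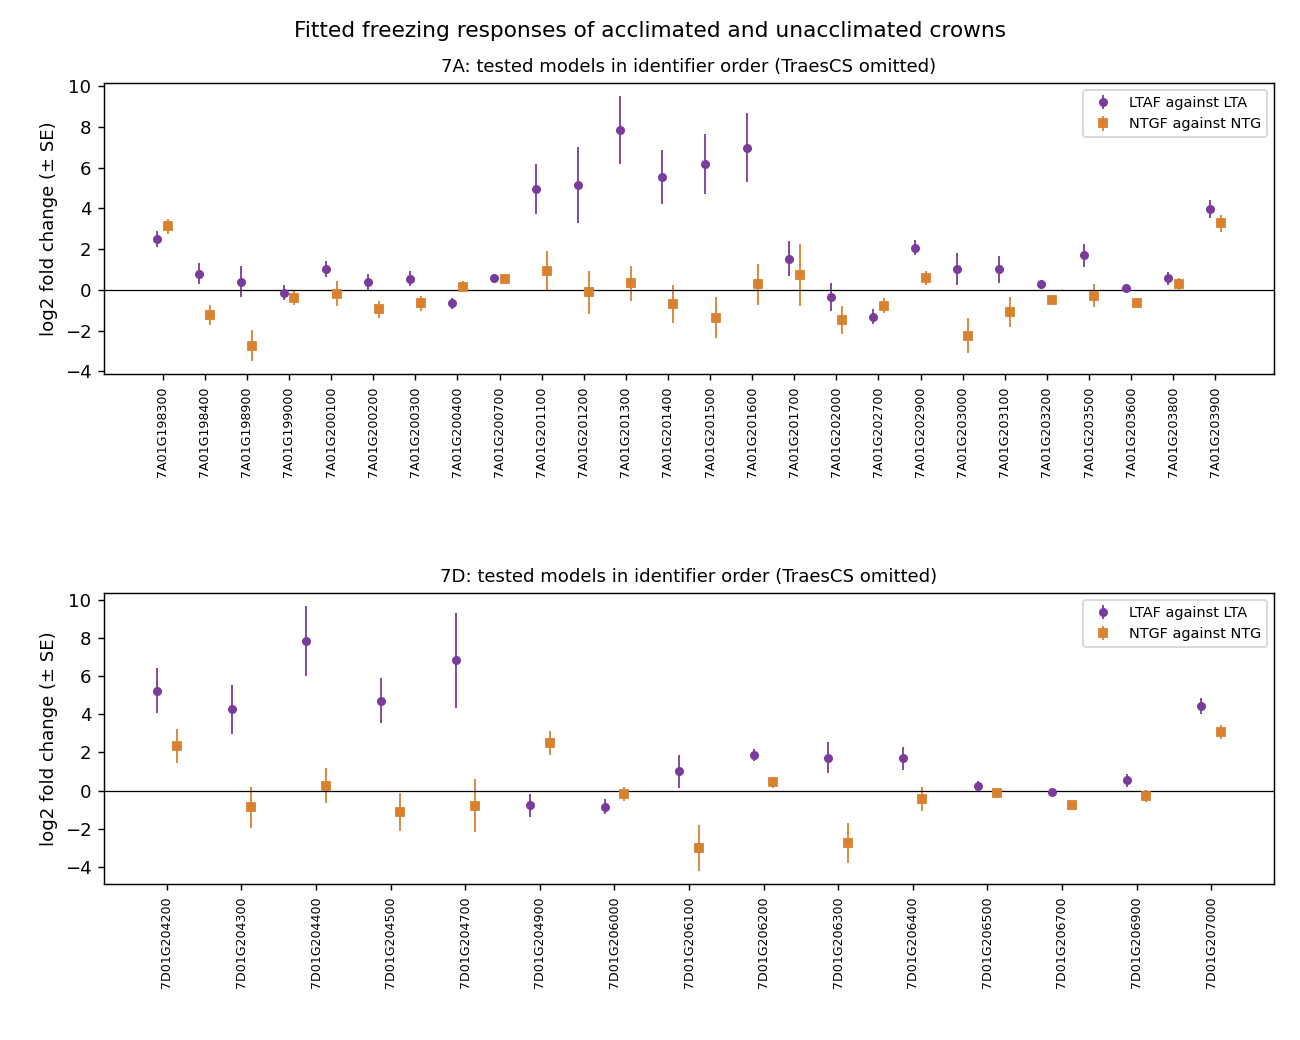
Fitted log2 fold changes ± SE of the tested members in identifier order, for LTAF against LTA (circles, the contrast that chose the members) and NTGF against NTG (squares), with 7A above and 7D below. The stretch models stand at 4.26 to 7.85 in LTAF against LTA and between -1.36 and 2.32 with wide errors in NTGF against NTG, and TraesCS7A01G198300, TraesCS7A01G203900 and TraesCS7D01G207000 are high in both.

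The remaining comparisons share the LTA or the LTAF libraries with the choice of members and are descriptions. In LTA against NTG, 2 of the 41 were called higher and 12 lower, or 4.88% and 29.3%, where 20.0% and 18.1% of all tested models were called. All LTA libraries lay above all NTG libraries for 7 members and below them for 15, against 29.0% and 31.2% of all tested models. The 2 called higher were TraesCS7A01G200100 and TraesCS7D01G204900. The 12 called lower included the 3 models at the ends of the ranges and 6 stretch models. Leaving out NTG replicate 1 or LTA replicate 3 gave 4 lower, LTA replicate 1 gave 5 and LTA replicate 2 gave 6. In these fits 12.3% to 13.5% of all models then tested were called lower. The count of higher models was 1 without NTG replicate 1, NTG replicate 2 or LTA replicate 1, against 15.4% to 16% of all models. In LTAF against NTG, 12 of the 41 were called higher and 4 lower, or 29.3% and 9.76%, against 23.5% and 21.5% of all tested models. The libraries did not overlap for 11 higher and 4 lower members, against 28.0% and 29.7%. With library totals as the scale there were 7 higher and 6 lower, where 14.8% and 39.6% of all tested models were called, with the median of all tested models at -0.49 in place of -0.06. The count of higher models was 7 without NTG replicate 3 or LTAF replicate 3, against 19.4% and 19.1% of all models then tested. That of lower models was 1 without NTG replicate 2 and 2 without LTAF replicate 3, against 16% and 15%. In LTAF against NTGF, 14 were called higher and 4 lower, or 34.1% and 9.76%, against 20.2% and 19.6%. The libraries did not overlap for 12 higher and 4 lower members, against 22.4% and 21.6%. The count of higher models was 8 without NTGF replicate 1 and 9 without NTGF replicate 2, against 16.1% and 19.2% of all models then tested. It was 6 without LTAF replicate 1 and 5 without LTAF replicate 3, against 14.7% in each. That of lower models was 2 without NTGF replicate 2, NTGF replicate 3, LTAF replicate 1 or LTAF replicate 3, against 12.5% to 18.4%. For the difference between the freezing responses, 4 members were called positive and 1 negative, or 9.76% and 2.44%, against 5.12% and 5.91% of all tested models. The count of positive members was 0 without NTG replicate 1, LTA replicate 1, LTA replicate 3, NTGF replicate 2, LTAF replicate 1 or LTAF replicate 3. In these fits 1.51% to 3.45% of all models then tested were positive. The count was 1 without LTA replicate 2 and 2 without NTG replicate 3, where 3.26% and 3.38% of all models were positive. It was 9 without NTGF replicate 3 and 16 without LTAF replicate 2, against 6.84% and 8.52%. With DESeq2 it was 18, against 7.42%.

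Both ends of the 7A range and the high end of the 7D range are single models with a large difference, beside members and non-members with small ones. Just outside the low end of 7A, TraesCS7A01G198200 and TraesCS7A01G198100 had LTAF against LTA log2 fold changes of 0.10 and 0.07, against 2.49 and 0.80 for TraesCS7A01G198300 and TraesCS7A01G198400 just inside. At the high end, TraesCS7A01G204000 and TraesCS7A01G204100 outside had -0.29 and 0.04, against 3.97 and 0.57 for TraesCS7A01G203900 and TraesCS7A01G203800 inside. TraesCS7A01G204000 lay at 0.741, 5.76 and 0.0622 CPM in LTAF replicates 1, 2 and 3 and at 2.69 ± 0.671 in LTA (SD, n = 3). On 7D, TraesCS7D01G204000 below the range had 0.66 and TraesCS7D01G203900 did not pass the filter on low counts, against 5.24 and 4.26 for TraesCS7D01G204200 and TraesCS7D01G204300 inside. Above the range, TraesCS7D01G207100 and TraesCS7D01G207200 had -0.41 and 0.01, against 4.42 and 0.54 for TraesCS7D01G207000 and TraesCS7D01G206900 inside. TraesCS7D01G207100 lay at 0.627, 5.99 and 0.187 CPM in LTAF replicates 1, 2 and 3. In both models just above the ranges LTAF replicate 2 was thus higher than the other LTAF libraries, the reverse of TraesCS7A01G203900 and TraesCS7D01G207000.

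The 22 members that did not pass the filter, 16 on 7A and 6 on 7D, add few reads. Of them, TraesCS7D01G204800 had most of its counts in LTAF, with 0, 2 and 1 counts in LTA, 12, 1 and 7 in LTAF and no count in NTG or NTGF. It was singled out after its values were seen, and so was its counterpart in this pattern, TraesCS7A01G201700, a tested member next to the 7A stretch, with 1, 1 and 1 counts in NTG, 1, 13 and 2 in LTA, 0, 1 and 3 in NTGF and 20, 2 and 19 in LTAF. In both, LTAF replicates 1 and 3 were the highest and LTAF replicate 2 lay within the span of LTA.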

How the data were processed

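Counts of RNA sequencing reads were analysed for 12 libraries. The authors deposited raw read counts, as whole numbers, for every gene model in 12 library columns. Which aligner, counting program, build and annotation made them is not given in the sources used here. Columns were matched to libraries by name, and groups were taken from the labels. Of the identifiers, 0 were found in the RefSeq gene table.

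Members were found by chromosome, number and confidence class in the identifier. The members, the sets among them and the tests were chosen with earlier results of these data known. Counts were scaled by TMM and filtered with filterByExpr (minimum count 10), and all 12 libraries entered a single fit in edgeR 4.0.16 (R 4.3.3) with a mean per group, robust dispersions, the quasi-likelihood test and p-values adjusted by Benjamini and Hochberg's method over the 69693 tested models. Tested models took 99.375% of the reads or more in every library, and the common biological coefficient of variation was 0.273. Log2 CPM uses a prior count of 2. Bounds use a floor of 3 counts over the group. Floors cover counting error only, and reads can include copies of 1 molecule. The p-values measure the spread between the biological replicates that the series' design names.

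Members named were, per chromosome, the 6 with the largest fitted LTAF against LTA change, the 4 with the highest mean CPM, those called in NTGF against NTG, the lowest in LTAF against LTA, and the 2 models just inside and outside each end. Others were named after their values were seen. The steps were tested on simulated data. Alternatives were other size factors, library totals, no filter, DESeq2 1.42.0 without independent filtering, the replicate number as a block, a fit of the compared groups alone and leaving out each library.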

Additional observations from a re-analysis of the deposited data

Results flagged for a closer look

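In 5 members the freezing response of acclimated plants, LTAF against LTA, differed from that of unacclimated plants, NTGF against NTG, by the interaction term in edgeR, where 5.12% of all tested models were positive and 5.91% negative. The LTA and LTAF libraries that chose the members enter this term, so the values are descriptions. The difference was 7.54 on the log2 scale for TraesCS7A01G201300, 6.23 for TraesCS7A01G201400, 7.53 for TraesCS7A01G201500 and 5.86 for TraesCS7D01G204500. These 4 lie in the stretches and had at most 3 counts in any LTA library, and their fitted sizes depend on the prior count. For TraesCS7D01G204900 the difference was -3.25, with 32 counts or fewer summed over each group. These calls changed with the libraries that entered the fit. As given above, no member was called positive in several fits that left out 1 library, where 1.51% to 3.45% of all models were. In other such fits the positive count was 4 without NTG replicate 2, 6 without NTGF replicate 1 and 16 without LTAF replicate 2. There 2.8%, 3.56% and 8.52% of all models then tested were positive. No member was called negative without any 1 of the NTG libraries, without the filter on low counts, or with the replicate number as a block. The same held without LTA replicate 1 or 2, NTGF replicate 1 or 2, or LTAF replicate 1 or 3.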

How the results depend on the processing

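Of the results on counts and means of members, those not named here stayed within 1.5 times the count, or within the replicate SD of the mean, in the alternatives run; the causes of the changes were not tested. Library totals gave 9 members lower in NTGF against NTG, where 20.9% of all tested models were. They gave 7 higher in LTAF against NTG (14.8% of all) and 9 positive in the interaction (8.07%). DESeq2 gave 6 lower in NTGF against NTG (12.4% of all) and 1 lower in LTAF against LTA (3.18%). It gave 18 positive in the interaction (7.42%). No filter on low counts gave 6 higher in LTAF against LTA (1.79% of all) and 2 lower in LTAF against NTGF (8.87%). It gave 1 positive and 0 negative in the interaction (2.28% and 2.27%). A fit of the compared groups alone gave mean LTA against NTG log2 changes of -0.32 on 7A and -0.47 on 7D. It gave 6 of the 34 members then tested higher in LTAF against NTGF, where 13.2% of all models then tested were. That fit tests another set of models, in which TraesCS7D01G204900 gave no value for NTGF against NTG.

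Leaving out each library in turn gave, for higher and lower calls, 3 to 6 and 2 to 5 in NTGF against NTG, 1 to 2 and 4 to 13 in LTA against NTG, 5 to 17 and 0 to 1 in LTAF against LTA, 5 to 17 and 2 to 4 in LTAF against NTGF, 7 to 16 and 1 to 6 in LTAF against NTG, and 0 to 16 and 0 to 1 in the interaction. The shares of all models then tested moved too. For higher and lower calls, they ran from 7.58% to 13.3% and 7.23% to 10% in NTGF against NTG. In LTA against NTG they ran from 15.4% to 16.2% and 12.3% to 13.6%, and in LTAF against LTA from 1.37% to 6.06% and 0.491% to 5.33%. In LTAF against NTGF the ranges were 14.7% to 20.9% and 12.5% to 22.4%, and in LTAF against NTG 18.6% to 21.9% and 14.6% to 26%. For the interaction they were 1.51% to 8.52% positive and 1.73% to 8.95% negative. The mean 7D log2 change in LTA against NTG ran from -1.74 to -0.95. In NTGF against NTG the mean was -0.20 on 7A and -0.12 on 7D, and without NTG replicate 1 it was 0.24 and 0.48.

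Over all tested models, same-numbered replicates did not in general deviate together: 2 of 18 correlations exceeded 0.1, in a range from -0.44 to 0.20. For the stretch models no such correlation was computed, and the order of their libraries is given instead. These models can share reads, so the following counts are not independent of one another. Replicate 2 was the lowest library in 11 of the 12 in NTG, 12 in NTGF and 11 in LTAF, but in 2 in LTA. Replicate 1 was the highest in 12 in NTG and 11 in NTGF, and replicate 3 in 12 in LTAF. The fit with a replicate block called 4 members higher and 3 lower in NTGF against NTG, where 10.6% and 9.13% of all tested models were. It called 2 and 13 in LTA against NTG (17.8% and 15.1% of all), and 13 and 0 in LTAF against LTA (2.77% and 0.981%). In LTAF against NTGF it called 14 and 3 (17.6% and 16.2%), and in LTAF against NTG 12 and 4 (21.4% and 18.5%). For the interaction it called 6 and 0 (2.09% and 2.44%). Depth limits the fitted sizes of the stretch models, since their LTA counts are at or near 0, and the 22 members under the filter were not tested.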
